A study of Mus musculus with 18 samples.

Results

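The libraries described here are the 4 RNA-seq libraries of RelA(TA2) cells taken at 1 h and at 2 h of TNFα, 2 at each time, out of 18 libraries in all. They were picked by their titles, so no measured value chose them, and the comparison asks how fast early transcripts were shut off and which transcripts rose late when RelA could not hold one of its coactivator domains. RelA(TA2) cells are immortalized rela-/- mouse embryonic fibroblasts (MEF) that carry mouse RelA(L449A+F473A) from a retroviral vector. Both substitutions replace a buried hydrophobic residue of the second transactivation region, and the protein then no longer binds the TAZ1 domain of CBP/p300. The cells received 5 ng/ml TNFα for 1 h or 2 h, and unstimulated cells of the same line, again 2 libraries, give the level before TNFα. RelA(wt) cells (wild-type mouse RelA) and RelA(Ser276Ala) cells (a serine changed to alanine, where phosphorylation of the serine promotes contact with the KIX domain of CBP/p300) were made in the same rela-/- background, given the same dose for the same times, and are used here only to show where RelA(TA2) cells differ. All 3 lines therefore lack endogenous RelA and express the protein from the vector, and the labels name 1 line for each construct, so a difference between lines cannot be told apart from a difference between reconstitutions. The lines did not hold equal amounts of RelA. Per the study, the level of RelA(Ser276Ala) protein was about 3 times lower than that of RelA(wt). Both libraries of each condition are described by the study as independent experiments.

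NF-κB dimers containing RelA are held in the cytoplasm by IκB proteins. TNFα leads to the degradation of IκBα, RelA enters the nucleus, and among the first genes it activates are those of its own inhibitors, IκBα (Nfkbia) and the ubiquitin-editing enzyme A20 (Tnfaip3), so that the first wave of transcripts ends soon after it begins. A second wave, which includes genes of NF-κB subunits, adhesion molecules and proteases, builds up later. In fibroblasts TNFα also triggers MAP kinase signalling, which switches on the immediate-early genes of the EGR, FOS and JUN families, whose transcripts are short-lived.

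Promoter stretches are shown for 6 genes picked by hand. They show matches to the motifs of RelA or the serum response factor. Of these genes, Nfkbia, Tnfaip3, Cxcl1 and Zfp36 fell and Nfkbie and Nfkb2 were higher at 2 h. Each stretch was placed around a match, so the presence of a match in it is no result. Each is 60 bases upstream of a RefSeq transcription start, on build GRCm38.p6, written 5′ to 3′ on the gene's strand. Capitals mark matches to the κB consensus on either strand, or, in Zfp36, to the CArG box that binds serum response factor.
Nfkbia, chr12:55492648-55492707, minus strand: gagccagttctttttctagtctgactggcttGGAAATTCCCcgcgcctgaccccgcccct
Tnfaip3, chr10:19015411-19015470, minus strand: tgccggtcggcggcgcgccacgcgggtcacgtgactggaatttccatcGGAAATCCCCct
Cxcl1, chr5:90891150-90891209, plus strand: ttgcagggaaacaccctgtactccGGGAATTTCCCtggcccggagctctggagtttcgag
Nfkbie, chr17:45555569-45555628, plus strand: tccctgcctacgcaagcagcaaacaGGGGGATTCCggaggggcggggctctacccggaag
Nfkb2, chr19:46304677-46304736, plus strand: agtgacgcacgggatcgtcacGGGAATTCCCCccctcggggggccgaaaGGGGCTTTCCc
Zfp36, chr7:28379252-28379311, minus strand: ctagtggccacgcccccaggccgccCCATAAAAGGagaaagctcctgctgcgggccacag
The marked runs in Cxcl1 and Nfkb2 contain overlapping matches. A match is a description of letters and was not tested for binding.

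The 4 libraries were of similar depth, with 27.2 M to 28.8 M mapped fragments. Levels are FPKM, fragments per kilobase of transcript and per M mapped fragments (M stands for 1000000), summed over the assembled transcripts of a gene. A second measure, the number of fragments behind those FPKM values per M fragments in genes, was recovered from the confidence limits in the files. It varied less between the 2 libraries of a condition (median SD 0.0539 on the log2 scale, against 0.0975 for FPKM in these 4 libraries). A gene without an assembled transcript is listed at 0, which 1221 of the 12250 tested genes are in at least 1 of the 4 libraries. Of the 9 fibroblast markers examined, 8 stood above 1 FPKM in all 4 libraries, led by Vim, and Fap was listed at 0. Of the macrophage markers, 4 of 8 were listed at 0 in all 4 libraries (among them Ptprc, Itgam and Emr1). So were 4 of 6 endothelial markers (among them Pecam1 and Tek) and 6 of 7 epithelial ones (among them Epcam and Cdh1). Of the markers of muscle, fat and nerve, 6 of 10 were listed at 0 in all 4 (among them Myod1, Adipoq and Rbfox3). Others were detected, among them the macrophage markers Cd68 (5.27 and 7.34 FPKM at 1 h, 8.13 and 5.38 at 2 h) and Csf1r (2.38 and 7.06 at 1 h, 5.39 and 4.33 at 2 h). The endothelial Cdh5 stood at 3.96 and 3.07 FPKM at 1 h and 10.2 and 8.81 at 2 h. The epithelial Krt8 stood at 2.57 and 26.0 at 1 h and 3.92 and 3.32 at 2 h. Tubb3, of the muscle, fat and nerve list, stood at 9.52 and 8.79 FPKM at 1 h and 13.1 and 15.5 at 2 h. In that list Des, Fabp4 and Pparg were also above 1 FPKM in all 4 libraries. The 8 macrophage markers summed to 15.6 to 23.1 FPKM at 1 h and 17.3 to 22.7 at 2 h, the 6 endothelial ones to 4.10 to 4.90 and 9.87 to 10.2, the 7 epithelial ones to 2.57 to 26.0 and 3.32 to 3.92, and the 10 markers of muscle, fat and nerve to 21.5 to 23.3 and 26.7 to 29.4. The part of these markers in the results was not tested. In bulk RNA, fewer cells of a type and less RNA per cell cannot be told apart. Rela, the reintroduced gene, stood at 366 and 329 FPKM at 1 h and 327 and 323 FPKM at 2 h. Its libraries did not overlap between times, with 2 h lower, which held for 22.8% of all tested genes. Its log2 change of -0.10 (SE 0.10, adjusted p = 0.771 by limma) was not called.

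Between 1 h and 2 h of TNFα, transcripts of immediate-early, MAP kinase phosphatase and stress genes fell in RelA(TA2) cells together with Tnfaip3 and Cxcl1, and those of Nfkb1, Nfkbie, Csf1, Ccl2, Cebpd and Fas rose. Log2 changes are of FPKM + 0.5 or of fragments per M + 0.5 and come from 1 limma model over all 18 libraries, with p-values adjusted by Benjamini-Hochberg over all genes tested. On FPKM, 179 of 12250 genes were higher at 2 h (1.46% of genes tested) and 136 were lower (1.11%) at an adjusted p under 0.05. On recovered fragments, 1097 of 11789 genes were higher (9.31%) and 1383 lower (11.7%). Of the genes called on FPKM, 151 higher and 113 lower were also called in the same direction on fragments, and 4 were called in opposite directions. Among those 151 the median log2 rise was 0.79, and among the 113 the median log2 change was -0.90, with 46 and 53 genes changed at least 2-fold. The median change over all genes tested was 0.0027 on FPKM and -0.015 on fragments. The split between higher and lower thus depended on the measure, with 56.8% of calls higher on FPKM and 44.2% on fragments. Of 70 named genes with an FPKM call, 38 kept it whichever of the 4 libraries was left out of the fit, among them Egr1, Btg2, Atf3, Jun, Klf6, Myc, Tnfaip3, Zfp36, Adamts1, Ppp1r15a, Sesn2, Cited2, Csf1, Cebpd, Ripk2, Fas, Mmp9 and Icam1, and 14 lost it in each of the 4 fits.

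The 1 h and 2 h libraries of RelA(wt) cells share no library with these, but both comparisons use the same per-gene variance of 1 model. In RelA(wt) cells 2.06% of all tested genes were called higher and 1.86% lower on FPKM, and 10.8% and 13.9% on fragments. Of the 179 genes higher in RelA(TA2) cells, 104 (58.1%) were also called higher in RelA(wt) cells, which is 41.3% of the 252 called there. Of the 136 lower genes, 78 (57.4%) were also called lower in RelA(wt) cells, which is 34.2% of 228. On fragments the shares were 70.3% of the higher and 71.1% of the lower genes. Over all genes tested, the log2 changes in RelA(TA2) and RelA(wt) cells had a Pearson correlation of 0.19 on FPKM and 0.38 on fragments.

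Of the immediate-early genes, Egr1 and Btg2 fell from 1 h to 2 h on both measures. Egr1 (chr18:34861207-34864956, plus strand, mm10), a zinc-finger factor induced within minutes by MAP kinase signalling, stood at 22.9 and 28.0 FPKM before TNFα, 150.0 and 279 at 1 h and 6.13 and 5.2 at 2 h. Both 2 h libraries lay far below both 1 h libraries and below the unstimulated level, and the log2 change from 1 h to 2 h was -5.06 (SE 0.27, adjusted p = 4.30e-06). Btg2, an antiproliferative cofactor, stood at 13.4 and 14.5 FPKM before TNFα, 75.3 and 91.5 at 1 h and 9.60 and 11.5 at 2 h, a log2 change of -2.92 (SE 0.15, adjusted p = 4.21e-06). Atf3, a stress-induced AP-1 family factor, went from 51.6 and 60.8 FPKM at 1 h to 7.66 and 9.08 FPKM at 2 h, a log2 change of -2.68 (SE 0.27, adjusted p = 5.07e-04), and stayed above its unstimulated level of 1.78 and 2.66 FPKM. Klf6, a Krüppel-like factor, went from 109 and 129 FPKM at 1 h to 35.6 and 31.4 FPKM at 2 h, a log2 change of -1.81 (SE 0.10, adjusted p = 6.20e-06). Jun changed by -1.62 (SE 0.18, adjusted p = 9.40e-04) on the log2 scale and Myc by -1.16 (SE 0.13, adjusted p = 9.12e-04). Fos was listed at 0 before TNFα, at 5.43 and 3.17 FPKM at 1 h and at 1.06 and 1.05 at 2 h, with a log2 change of -1.59 (SE 0.29, adjusted p = 0.0174). In each of these genes the 1 h and the 2 h libraries did not overlap. Of all tested genes, 25.2% did not overlap with 2 h higher and 22.8% with 2 h lower. The call of Fos was kept only without 1 h replicate 2, of the 4 fits without 1 library.

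As a list, 6 of the 22 tested genes of the EGR, NR4A, KLF and IER group fell and 1, Nr4a2, rose (log2 change 0.93, SE 0.13, adjusted p = 0.00400), with a list median of -0.69 against 0.0027 over all genes. On fragments 16 of the 22 fell and 3 rose. Of the 10 AP-1 factors, 3 fell (Fos, Jun and Atf3) and none rose on FPKM. On fragments 5 of 9 fell and 1, Fosl2, rose. Fosb and Junb, 2 of the fragment calls, had log2 changes of -1.92 and -0.79.

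**Figure D1:**
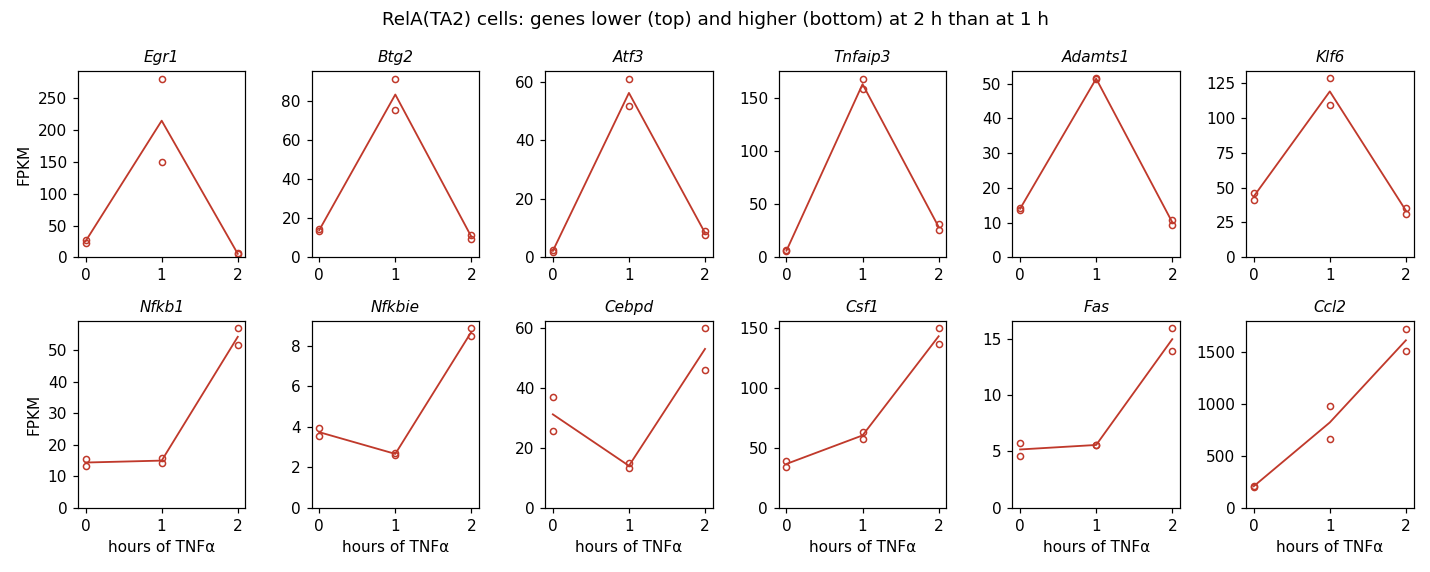
FPKM (linear axis from 0) of 6 genes lower and 6 genes higher at 2 h than at 1 h, against hours of TNFα in RelA(TA2) cells; open circles are the 2 libraries of a time and lines join their means. The upper genes peak at 1 h, as Egr1 does with 150.0 and 279 FPKM, and the lower genes are highest at 2 h, as Nfkb1 is with 57.0 and 51.5 FPKM.

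The feedback inhibitors of NF-κB split into genes that went down and genes that went up. Tnfaip3 (chr10:19000910-19015410, minus strand), whose product A20 removes activating ubiquitin chains, stood at 5.94 and 6.77 FPKM before TNFα, 167 and 158 at 1 h and 26.2 and 31.2 at 2 h, a log2 change from 1 h to 2 h of -2.49 (SE 0.25, adjusted p = 5.07e-04). Nfkbia (chr12:55488496-55492725, minus strand), the gene of IκBα, stood at 14.3 and 17.1 FPKM before TNFα, 193 and 190.5 at 1 h and 75.4 and 87.5 at 2 h. Its libraries did not overlap between times, with 2 h lower, which held for 22.8% of all tested genes. Its log2 change of -1.23 (SE 0.32, adjusted p = 0.0835) missed the FPKM test. On fragments the change was -1.32 (SE 0.13, adjusted p = 4.67e-05) and passed. Nfkbiz, which encodes the nuclear protein IκBζ, behaved alike, with 21.0 and 27.4 FPKM at 1 h and 8.54 and 12.6 FPKM at 2 h, a log2 change of -1.17 (SE 0.34, adjusted p = 0.129) on FPKM and -1.43 (SE 0.18, adjusted p = 2.63e-04) on fragments. Nfkbie, the gene of IκBε, instead rose from 2.70 and 2.63 FPKM to 8.48 and 8.89 FPKM, a log2 change of 1.54 (SE 0.27, adjusted p = 0.0150). The FPKM call of Nfkbie was lost whichever library was left out. Over the 5 tested IκB genes, 1 rose and none fell on FPKM, and 3 rose and 2 fell on fragments.

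Among the NF-κB subunits, Nfkb1, the precursor of p50, rose from 15.8 and 14.2 FPKM to 57.0 and 51.5 FPKM, after 15.7 and 13.1 before TNFα. The log2 change from 1 h to 2 h was 1.82 (SE 0.32, adjusted p = 0.0150), and the 1 h libraries overlapped with the unstimulated ones. The FPKM call of Nfkb1 held only in the fit without 1 h replicate 1, of the 4 fits without 1 library. Relb, a partner of p52, stood at 12.5 and 14.6 FPKM at 1 h and 30.7 and 31.1 FPKM at 2 h, with log2 changes of 1.16 (SE 0.36, adjusted p = 0.146) on FPKM and 1.27 (SE 0.13, adjusted p = 7.08e-05) on fragments. Nfkb2, the precursor of p52, stood at 59.3 and 62.8 FPKM at 1 h and 127 and 126 FPKM at 2 h, with 1.04 (SE 0.32, adjusted p = 0.149) on FPKM and 0.88 (SE 0.06, adjusted p = 5.13e-06) on fragments. Neither passed on FPKM and both passed on fragments. Genes called on fragments only, here and in the paragraphs that follow, were named after their values were seen. In total 1 of the 5 subunit genes rose on FPKM and 3 on fragments, with none falling on either measure. Of the 10 ubiquitin regulators around A20, Tnfaip3 was the only FPKM call. On fragments Tnip1 (log2 change 0.87), which links A20 to NEMO, Birc2 (0.35) and Birc3 (0.91), which encode cIAP1 and cIAP2, rose, and Otud1 (-1.25) fell with Tnfaip3. Of the 14 genes from the TNF receptor to IKK, none was called on FPKM by limma, with 4 higher and 2 lower on fragments. At an unadjusted p under 0.05, 4 of the 14 passed on FPKM, beside 1729 (14.1%) of the 12250 tested genes.

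Secreted factors and adhesion molecules moved in both directions. Cxcl1, a neutrophil-attracting chemokine, had no assembled transcript before TNFα and went from 43.6 and 51.7 FPKM at 1 h to 16.9 and 24.8 FPKM at 2 h, a log2 change of -1.19 (SE 0.24, adjusted p = 0.0303). Ccl2, which attracts monocytes, continued upward, with 201 and 215 FPKM before TNFα, 982 and 659 FPKM at 1 h and 1503 and 1717 FPKM at 2 h, a log2 change of 1.00 (SE 0.20, adjusted p = 0.0287) between the stimulated times. These were the calls among 11 tested chemokines on FPKM, and both were lost without 2 h replicate 1 and without 1 h replicate 2, Cxcl1 also without 1 h replicate 1 and Ccl2 also without 2 h replicate 2. Csf1, the growth factor of macrophages, was also highest at 2 h, with 34.3 and 39.2 FPKM before TNFα, 63.4 and 57.8 FPKM at 1 h and 137 and 150.2 FPKM at 2 h, a log2 change of 1.24 (SE 0.11, adjusted p = 1.98e-04), the only FPKM call among 17 cytokines and growth factors, of which 2 were called higher and 2 lower on fragments. Ereg, a ligand of the EGF receptor, fell from 59.7 and 65.8 FPKM to 28.3 and 28.8 FPKM (log2 change -1.12, SE 0.16, adjusted p = 0.00405). Mmp9, a gelatinase, was listed at 0 at 0 h and 1 h and at 6.93 and 14.7 FPKM at 2 h (adjusted p = 2.97e-04). Icam1, which mediates leukocyte adhesion, was likewise listed at 0 at 0 h and 1 h and at 1.65 and 3.72 FPKM at 2 h (adjusted p = 0.00214). Both Mmp9 and Icam1 also passed on fragments. Adamts1, a secreted metalloprotease, fell from 51.3 and 51.6 FPKM to 9.31 and 10.9 (log2 change -2.30, SE 0.30, adjusted p = 0.00254), so of 16 adhesion and protease genes 2 rose and 1 fell.

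Of the 9 genes that the study followed by qRT-PCR, those not yet given, the 6 that follow, had no FPKM call by limma. Ptgs2, the inducible cyclooxygenase, stood at 170.4 and 184 FPKM at 1 h and 127 and 124 FPKM at 2 h (log2 change -0.49, SE 0.32, adjusted p = 0.565) and was called lower on fragments, with -0.55 (SE 0.10, adjusted p = 0.00240). Vcam1 stood at 20.0 and 29.4 FPKM at 1 h and 35.9 and 33.8 FPKM at 2 h (log2 change 0.51, SE 0.31, adjusted p = 0.536) and was called higher on fragments, with 0.63 (SE 0.20, adjusted p = 0.0435). Tnfsf9, a ligand of the TNF family, stood at 15.7 and 14.95 FPKM at 1 h and 10.3 and 12.6 FPKM at 2 h, a log2 change of -0.41 (SE 0.14, adjusted p = 0.196). Csf2 was listed at 1.24 and 0 FPKM and Cxcl2 at 1.70 and 0 FPKM at 1 h, and both at 0 in the 2 h libraries. Tnf was listed at 0 in all 4 libraries.

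Negative regulators of MAP kinase signalling fell with the immediate-early genes. Dusp1, a phosphatase that inactivates p38 and JNK, went from 12.4 and 16.2 FPKM at 1 h to 4.24 and 5.2 FPKM at 2 h, a log2 change of -1.50 (SE 0.26, adjusted p = 0.0150). Dusp6, which acts on ERK, went from 52.6 and 56.5 FPKM at 1 h to 32.9 and 32.8 FPKM at 2 h (log2 change -0.72, SE 0.14, adjusted p = 0.0212). With Dusp5 (-0.76) and Dusp10 (-0.55), 4 of 8 tested phosphatases fell and none rose, with a list median of -0.56. On fragments 6 of 8 fell. The FPKM calls of Dusp5 and Dusp6 were lost whichever library was left out, that of Dusp10 in all fits but the one without 2 h replicate 1, and that of Dusp1 without 2 h replicate 1 or 1 h replicate 2. Spry2 (log2 change -1.03, SE 0.15, adjusted p = 0.00418), an inhibitor of receptor tyrosine kinase signalling, and Rgs16 (log2 change -0.75, SE 0.15, adjusted p = 0.0275), which speeds up G protein inactivation, were the 2 FPKM calls, both lower, among 13 Sprouty, SOCS and RGS genes, with that of Rgs16 lost whichever library was left out. On fragments 1 of the 13 rose and 5 fell, and the list median was 0.24 on FPKM and -0.30 on fragments. Zfp36, whose product tristetraprolin binds AU-rich elements and speeds the decay of cytokine mRNA, went from 9.86 and 17.4 FPKM at 1 h to 2.56 and 2.79 FPKM at 2 h, a log2 change of -2.10 (SE 0.25, adjusted p = 0.00140). Its relative Zfp36l1 changed by -0.78 (SE 0.09, adjusted p = 0.00116), and the remaining 9 of 11 mRNA decay regulators were not called on FPKM.

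Genes of the integrated stress response fell as well, and 1 h and 2 h libraries did not overlap in any of those given here. Non-overlap with 2 h lower held for 22.8% of all tested genes. Ppp1r15a, whose product GADD34 restores translation by directing dephosphorylation of eIF2α, went from 53.1 and 58.6 FPKM at 1 h to 12.4 and 13.2 FPKM at 2 h, a log2 change of -2.09 (SE 0.21, adjusted p = 5.07e-04). Chac1, which degrades glutathione, went from 22.9 and 21.5 FPKM at 1 h to 3.40 and 1.88 FPKM at 2 h (log2 change -2.90, SE 0.47, adjusted p = 0.00906), and Sesn2, a stress-induced inhibitor of mTORC1, from 38.8 and 41.6 FPKM at 1 h to 9.13 and 9.28 FPKM at 2 h (log2 change -2.07, SE 0.30, adjusted p = 0.00518). Herpud1, a component of ER-associated degradation, changed by -1.78 (SE 0.30, adjusted p = 0.0112) and Trib3 by -2.03 (SE 0.34, adjusted p = 0.0113). In all 5 of 16 stress and unfolded protein response genes fell and none rose, with a list median of -0.54. The unstimulated libraries of these genes spread widely, with 28.7 and 72.0 FPKM for Herpud1 and 14.4 and 36.0 for Chac1, a spread that enters the SE and p of their changes from 1 h to 2 h, since all 18 libraries set the error. Of 17 p53 target genes 5 fell, Btg2, Sesn2, Pmaip1, Mdm2 (log2 change -1.09, SE 0.23, adjusted p = 0.0318) and Trp53inp1 (log2 change -0.96, SE 0.17, adjusted p = 0.0150), while Fas, a death receptor, rose from 5.58 and 5.57 to 16.0 and 13.9 FPKM (log2 change 1.34, SE 0.16, adjusted p = 0.00140). Btg2 also counts in the EGR group, Sesn2 in the stress list and Pmaip1, which encodes NOXA, in the survival list. The survival and death list held 2 that fell, Gadd45a (log2 change -2.10, SE 0.44, adjusted p = 0.0318), a growth arrest gene, and Pmaip1 (log2 change -0.62, SE 0.09, adjusted p = 0.00515), and 1 that rose, Bcl2l1 (log2 change 0.44, SE 0.09, adjusted p = 0.0347), which encodes BCL-xL. The calls of Gadd45a and Bcl2l1 were lost whichever library was left out, that of Herpud1 without replicate 2 of either time and that of Chac1 without 2 h replicate 2.

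Smaller groups of calls lay outside these pathways. Cebpd, a C/EBP factor, had 25.6 and 36.8 FPKM before TNFα, more than at 1 h and less than at 2 h, with 13.2 and 14.8 FPKM at 1 h and 59.9 and 46.1 FPKM at 2 h (log2 change 1.87, SE 0.22, adjusted p = 0.00140). It was the only FPKM call of 12 late transcription regulators, of which 6 rose and 2 fell on fragments. Ripk2, the kinase downstream of NOD receptors, went from 8.14 and 7.25 FPKM at 1 h to 16.5 and 14.0 FPKM at 2 h (log2 change 0.94, SE 0.14, adjusted p = 0.00459). Of 20 YAP and SRF targets, Ankrd1 (-1.39), Rhob (-1.32), Filip1l (-1.81) and Rnd3 (-0.74) fell and Tpm1 (0.41) rose. Cited2, which competes for the TAZ1 domain of CBP and p300, fell from 221 and 234 to 106 and 110.4 FPKM (log2 change -1.07, SE 0.07, adjusted p = 2.20e-05), and Ncoa2, a nuclear receptor coactivator, changed by -0.58 (SE 0.09, adjusted p = 0.00969). The genes of the coactivators themselves, Crebbp and Ep300, were chosen after their values were seen and did not pass, with a log2 change of -0.08 (SE 0.34, adjusted p = 1) for Crebbp and -0.47 (SE 0.30, adjusted p = 0.566) for Ep300. Ifit3 (log2 change -1.19, SE 0.23, adjusted p = 0.0222) and Ifit2 (log2 change -0.50, SE 0.09, adjusted p = 0.0174), interferon-induced antiviral genes, were the FPKM calls, both lower, among 22 interferon and antigen-processing genes, where 2 were called higher and 4 lower on fragments. Adm, which encodes adrenomedullin (-1.37), fell and Hk2, a hexokinase (0.72), rose among 13 hypoxia and glycolysis genes, Sgk1 (-0.99) fell and Arntl (0.78) rose among 12 clock and glucocorticoid genes, and Fstl1 (0.34) and Loxl2 (0.47) rose among 17 matrix genes. Of these calls, that of Loxl2 was lost whichever library was left out, and those of Adm, Hk2, Fstl1, Sgk1, Ifit2 and Ifit3 in 1 to 3 of the 4 fits.

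Of the lists that would show a general change of the cells, 21 cell cycle, 10 cholesterol, 12 ribosomal protein, 7 heat shock and 3 histone genes held no call on FPKM by limma, and their medians lay between -0.06 and 0.12. On fragments 1 of them, Dnajb1 of the heat shock list, was called, at a log2 change of -0.51. The 10 tested TGF-β and BMP targets had no FPKM call either, with a median of 0.32, and 2 rose on fragments. At an unadjusted p under 0.05, 5 of these 63 genes passed on FPKM, against the 14.1% of all tested genes.

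**Figure D2:**
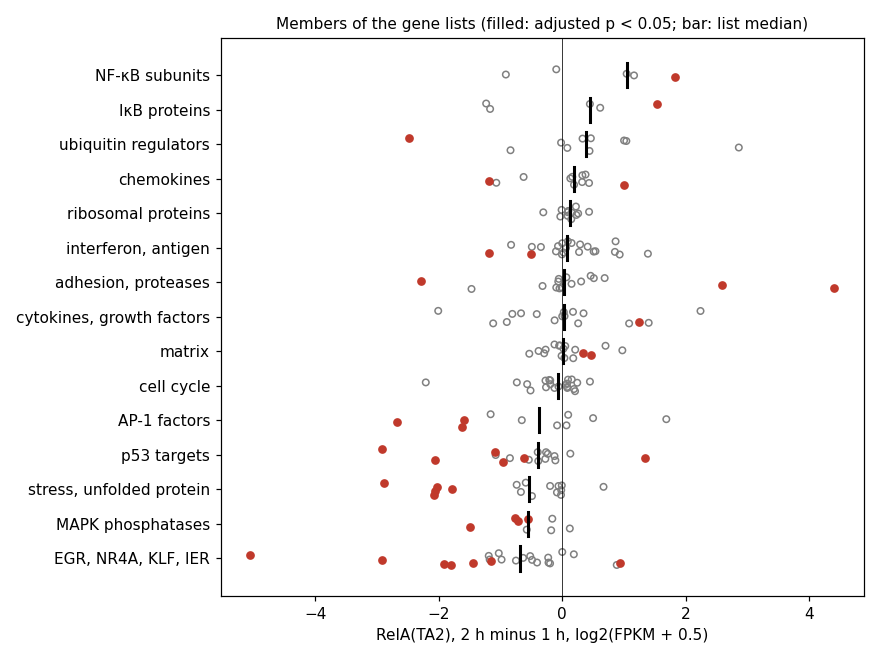
Log2 change in FPKM + 0.5 from 1 h to 2 h of TNFα in RelA(TA2) cells for the tested members of 15 gene lists; each circle is a gene, filled where the adjusted p was under 0.05, and bars are list medians. The EGR, NR4A, KLF and IER list has the lowest median of those drawn (-0.69) and the NF-κB subunits the highest (1.04).

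Between 1 h and 2 h the fall was smaller in RelA(TA2) cells than with RelA(wt) for several early transcripts. The share of 1 h FPKM left at 2 h was larger with RelA(Ser276Ala) than with RelA(wt) for most of them too. It was 86.5% and 24.4% for Irf1, 25.1% and 15.1% for Klf6, and 80.0% and 31.9% for Lif. For Cxcl1 it was 23.2% and 10.8%, and for Nfkbiz 32.3% and 15.8%. Tnfaip3 and Nfkbia kept 12.8% and 36.1% with RelA(Ser276Ala). Fos was listed at 0 at 2 h in both of those lines. None of these was called different between RelA(TA2) and RelA(Ser276Ala) cells on either measure. The test below is of the difference between RelA(TA2) and RelA(wt) cells in their change from 1 h to 2 h. On FPKM 11 of 12250 genes had a higher change in RelA(TA2) cells (0.0898%) and 17 a lower one (0.139%). On fragments 20 of 11789 were higher (0.17%) and 8 lower (0.0679%). Of the 20, 19 (Amdhd2, joined with Atp6v0c in the RelA(wt) assemblies at 1 h, is 1 of them) had a mean fragment level that went down from 1 h to 2 h in RelA(wt) cells. The 20 were chosen by a positive difference, which favours a negative change in RelA(wt) cells, so this count is partly set by the choice. It includes changes as small as -0.0018 (Abr). In RelA(TA2) cells the level of 9 of the 20 rose. Tnfaip3 stood at 283 and 274 FPKM at 1 h and 10.6 and 10.5 at 2 h in RelA(wt) cells, so 3.79% of the 1 h level was left there at 2 h, against 17.6% in RelA(TA2) cells. The difference between the changes was 2.17 (SE 0.35, adjusted p = 0.0403) on FPKM and 2.09 (SE 0.14, adjusted p = 1.40e-05) on fragments. The FPKM call of Tnfaip3 was lost in 6 of 8 fits without 1 library (adjusted p 0.0502 to 0.0773) and kept without RelA(TA2) 1 h replicate 1 or 2 h replicate 1. Nfkbia stood at 272 and 395 FPKM at 1 h and 41.9 and 33.7 at 2 h in RelA(wt) cells, 11.3% of the 1 h level against 42.5% in RelA(TA2) cells. Its difference missed the FPKM test at 1.88 (SE 0.45, adjusted p = 0.248) and passed on fragments at 2.29 (SE 0.19, adjusted p = 9.88e-05). In both genes RelA(wt) cells had the higher level at 1 h and the lower level at 2 h, with no overlap between the lines at either time.

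Lif, a cytokine of the IL-6 family, fell in RelA(wt) cells and had its highest library at 2 h in RelA(TA2) cells. In RelA(TA2) cells it stood at 4.90 and 4.56 FPKM before TNFα, 30.1 and 25.8 at 1 h and 30.6 and 36.6 at 2 h. In RelA(wt) cells it stood at 36.0 and 38.1 FPKM at 1 h and 10.6 and 13.03 at 2 h. Its log2 change from 1 h to 2 h was 0.26 (SE 0.16, adjusted p = 0.535) in RelA(TA2) cells and -1.61 (SE 0.16, adjusted p = 2.62e-04) in RelA(wt) cells, a difference of 1.87 (SE 0.22, adjusted p = 0.00548). Irf1, an interferon regulatory factor, stood at 36.9 and 27.5 FPKM at 1 h and 21.6 and 28.9 FPKM at 2 h in RelA(TA2) cells. In RelA(wt) cells it stood at 70.5 and 58.7 FPKM at 1 h and 15.1 and 16.4 at 2 h. The 1 h and 2 h libraries of RelA(TA2) cells overlapped, those of RelA(wt) cells did not, and the difference was 1.65 (SE 0.26, adjusted p = 0.0362). Klf6 stood at 184 and 192 FPKM at 1 h and 28.9 and 27.7 at 2 h in RelA(wt) cells, from a higher level at 1 h than the RelA(TA2) libraries given above to a lower one at 2 h, with a difference of 0.90 (SE 0.14, adjusted p = 0.0351). Fos was listed at 0 in both RelA(wt) libraries at 2 h, after 8.84 and 10.2 FPKM at 1 h, and its difference also passed on both measures (adjusted p = 0.0244 on FPKM). No fold is given here against these zeros, and the fitted difference of Fos in a later section depends on the pseudocount. The FPKM call of Irf1 was lost without RelA(wt) 1 h replicate 1, RelA(wt) 2 h replicate 1 or RelA(TA2) 1 h replicate 2, and that of Klf6 without RelA(wt) 1 h or 2 h replicate 2.

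Chemokine and IκBζ transcripts passed the test of the difference from RelA(wt) cells on fragments only. Cxcl1 had 153 and 169 fragments per M at 1 h and 10.01 and 10.6 at 2 h in RelA(wt) cells. In RelA(TA2) cells it had 37.0 and 49.3 fragments per M at 1 h and 15.6 and 20.7 at 2 h, a difference in log2 change of 2.67 (SE 0.30, adjusted p = 0.00221), and of 1.99 (SE 0.35, adjusted p = 0.0591) on FPKM. At 2 h it was the RelA(TA2) libraries that stood higher. Nfkbiz had 219.7 and 253 fragments per M at 1 h and 27.6 and 22.8 at 2 h in RelA(wt) cells. The RelA(TA2) libraries had 81.3 and 111 fragments per M at 1 h and 30.5 and 39.9 at 2 h, a difference of 1.77 (SE 0.26, adjusted p = 0.0169). Cxcl10, a chemokine that attracts T cells, had 25.2 and 22.3 fragments per M at 1 h and 9.29 and 10.2 at 2 h in RelA(wt) cells, where it went down. In RelA(TA2) cells it was low throughout, with 2.75 and 2.53 fragments per M at 1 h and 3.02 and 3.74 at 2 h, a difference of 1.54 (SE 0.27, adjusted p = 0.0495). Csf2 and Cxcl2 were also called, but were listed at 0 in both lines at 2 h and in 1 of the 2 RelA(TA2) libraries at 1 h, after 14.0 and 13.1 FPKM for Csf2 and 9.58 and 7.21 FPKM for Cxcl2 in RelA(wt) cells at 1 h. Among the genes with a lower change in RelA(TA2) cells, Lrrc32, which anchors latent TGF-β at the cell surface, was called higher at 2 h in both lines. It had 76.2 and 74.9 fragments per M at 1 h and 263 and 259 at 2 h in RelA(TA2) cells and 52.7 and 53.1 fragments per M at 1 h and 291 and 275 at 2 h in RelA(wt) cells, a difference of -0.62 (SE 0.08, adjusted p = 0.00735). The guanylate-binding protein genes Gbp6 and Gbp7 were listed at 0 in RelA(TA2) cells at both times and appeared only at 2 h in RelA(wt) cells, with 4.19 and 3.65 FPKM for Gbp7. The genes of this paragraph were picked for this comparison after their values were seen.

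**Figure D3:**
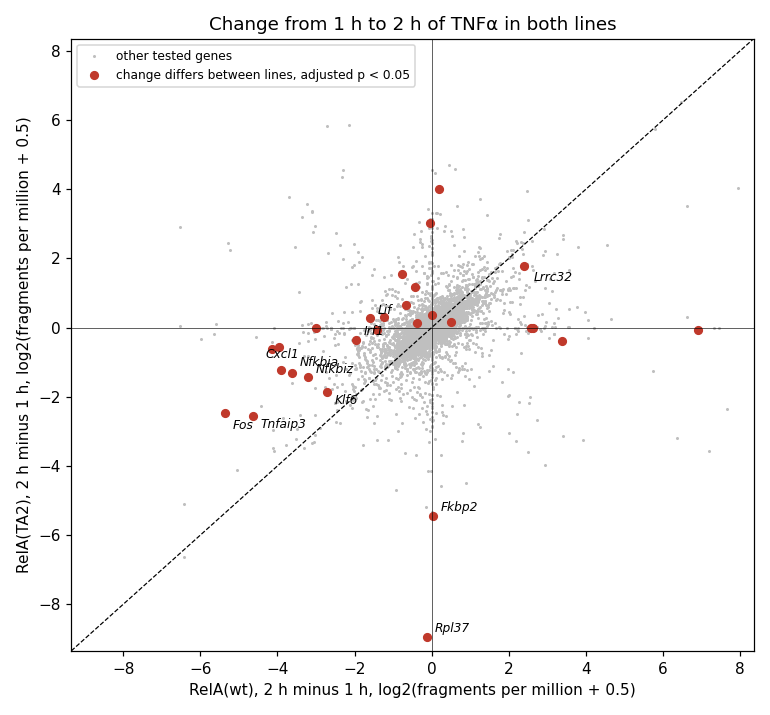
Log2 change in recovered fragments per M + 0.5 from 1 h to 2 h of TNFα, RelA(TA2) cells (vertical axis) against RelA(wt) cells (horizontal axis), for the genes tested on both measures; red points are the 28 genes whose change differed between lines at an adjusted p under 0.05, and the dashed line marks equal change. Tnfaip3, Nfkbia, Nfkbiz, Cxcl1, Lif, Irf1, Klf6 and Fos lie above the line, to the left of 0 on the horizontal axis.

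The same was looked at over whole sets of activated genes. In RelA(wt) cells, 93 genes rose at least 2-fold from 0 h to 1 h at an adjusted p under 0.05. In RelA(TA2) cells 60 of the 93 were called higher at 1 h than at 0 h, against 128 of all 12250 genes tested. The median log2 rise there was 1.43. Of the 93, 35 (37.6%, against 1.11% of all genes tested) were called lower at 2 h than at 1 h in RelA(TA2) cells and 5 higher. Over the 93 the median log2 change was -0.74, with quartiles of -1.39 and 0.00. The part of the 1 h rise in these medians was not tested. In RelA(wt) cells 64 of the 93 (68.8%, against 1.86% of all genes) were called lower and 1 higher, with a median of -1.54, but the RelA(wt) libraries at 1 h also chose the set. RelA(Ser276Ala) cells did not choose it. There 41 of the 93 (against 110 of 12250 genes tested) were called lower and 1 higher, with a median of -0.78, close to RelA(TA2) cells. On fragments this set held 140 genes, of which 113 were called higher at 1 h in RelA(TA2) cells (against 426 of 11789 genes tested). Its medians were -0.84 in RelA(TA2), -0.75 in RelA(Ser276Ala) and -1.14 in RelA(wt) cells. The 84 genes activated by the same rule in RelA(Ser276Ala) cells were chosen by neither RelA(TA2) nor RelA(wt) libraries. In RelA(TA2) cells 57 of the 84 were called higher at 1 h than at 0 h (against 128 of 12250 genes), with a median log2 rise of 1.49. From 1 h to 2 h the median log2 change of the 84 was -0.80 in RelA(TA2) cells, with 34 called lower and 1 higher. It was -1.15 in RelA(wt) cells, with 44 lower and 2 higher. For the 81 of them detected at 1 h in all lines, the median gene kept 51.8% of its 1 h level at 2 h in RelA(TA2) cells and 42.2% in RelA(wt) cells. On fragments, where 97 genes formed the set, the medians lay closer, at -1.01 and -1.15, with 66 and 63 genes called lower (against 11.7% and 13.9% of all genes). The difference in change was above 0 for 56 of the 84 genes on FPKM and for 61 of the 97 on fragments. Its median was 0.23 and 0.29 in the sets, against 0.042 and 0.014 over all genes tested, also above 0. It was called for 4 and 8 of the set genes, every one with the higher change in RelA(TA2) cells (against 0.0898% and 0.17% of all genes). Most genes of these sets were thus not called different between the lines.

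**Figure D4:**
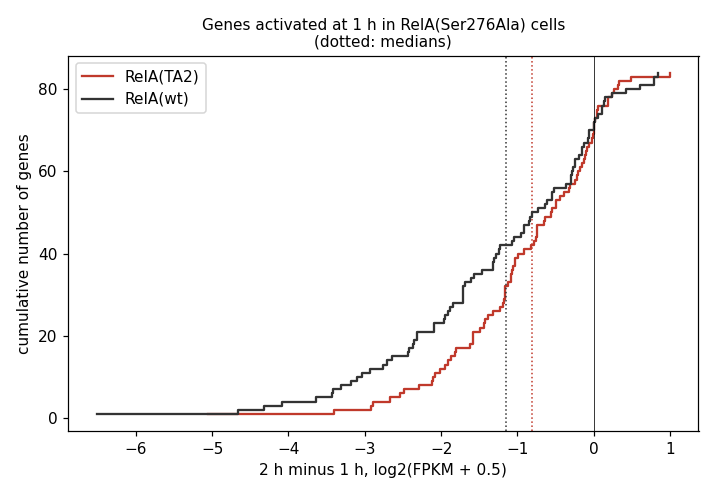
Cumulative number of genes (vertical axis) against log2 change in FPKM + 0.5 from 1 h to 2 h of TNFα, for the 84 genes activated at 1 h in RelA(Ser276Ala) cells, in RelA(TA2) cells (red) and RelA(wt) cells (black); dotted lines are medians, -0.80 and -1.15. The RelA(wt) curve lies further to the left over the stronger falls.

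Against RelA(Ser276Ala) cells, the genes called with a higher change in RelA(TA2) cells on fragments included several of the NF-κB pathway. On FPKM 8 genes had a higher change in RelA(TA2) cells (0.0653%) and 12 a lower one (0.098%), and on fragments 26 a higher (0.221%) and 7 a lower one (0.0594%). All 26 had a positive change from 1 h to 2 h in RelA(TA2) cells, not each past its own test, and 10 of them had a negative one in RelA(Ser276Ala) cells. The 26 were chosen by a positive difference, which favours both of these signs, so the counts are partly set by the choice. Among the 26 is Nfkb1, which stood at 39.5 and 38.0 fragments per M at 1 h and 78.4 and 79.5 at 2 h in RelA(Ser276Ala) cells. The RelA(TA2) libraries had 63.9 and 57.4 fragments per M at 1 h and 226 and 209 at 2 h, a difference in log2 change of 0.82 (SE 0.12, adjusted p = 0.0121). Ripk2 stood at 12.9 and 14.7 fragments per M at 1 h and 14.6 and 15.8 at 2 h in RelA(Ser276Ala) cells. The RelA(TA2) libraries had 20.8 and 19.1 fragments per M at 1 h and 39.9 and 37.7 at 2 h, a difference of 0.81 (SE 0.12, adjusted p = 0.0186). Tnip1 differed by 0.60 (SE 0.10, adjusted p = 0.0368) on fragments and 0.12 (SE 0.26, adjusted p = 0.980) on FPKM. Ikbke, an IKK-related kinase, differed by 1.17 (SE 0.17, adjusted p = 0.0145) on fragments and 1.04 (SE 0.44, adjusted p = 0.757) on FPKM. Sod2, the mitochondrial superoxide dismutase, differed by 0.48 (SE 0.07, adjusted p = 0.0201) on fragments and -0.06 (SE 0.41, adjusted p = 1) on FPKM, where the sign was the opposite. Icam1, also called, was listed at 0 in every RelA(Ser276Ala) library. Tmem119, a membrane protein, was called on both measures, with 26.0 and 28.6 FPKM at 1 h and 65.1 and 62.2 FPKM at 2 h in RelA(TA2) cells. In RelA(Ser276Ala) cells its libraries overlapped between the times, and it stood at 21.6 and 18.6 FPKM at 1 h and 21.0 and 19.7 at 2 h, a difference of 1.19 (SE 0.17, adjusted p = 0.0251). Tnfaip3 and Nfkbia, which fell less than in RelA(wt) cells, did not pass here, with 0.36 (SE 0.14, adjusted p = 0.459) for Tnfaip3 and 0.12 (SE 0.19, adjusted p = 0.835) for Nfkbia on fragments. Nfkb1 and Ripk2 were not called different from RelA(wt) cells, at 0.09 (SE 0.12, adjusted p = 0.903) for Nfkb1 and -0.68 (SE 0.12, adjusted p = 0.0573) for Ripk2. The genes of this paragraph were named after their values were seen. The lower amount of RelA protein in RelA(Ser276Ala) cells was not accounted for in these comparisons.

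**Figure D5:**
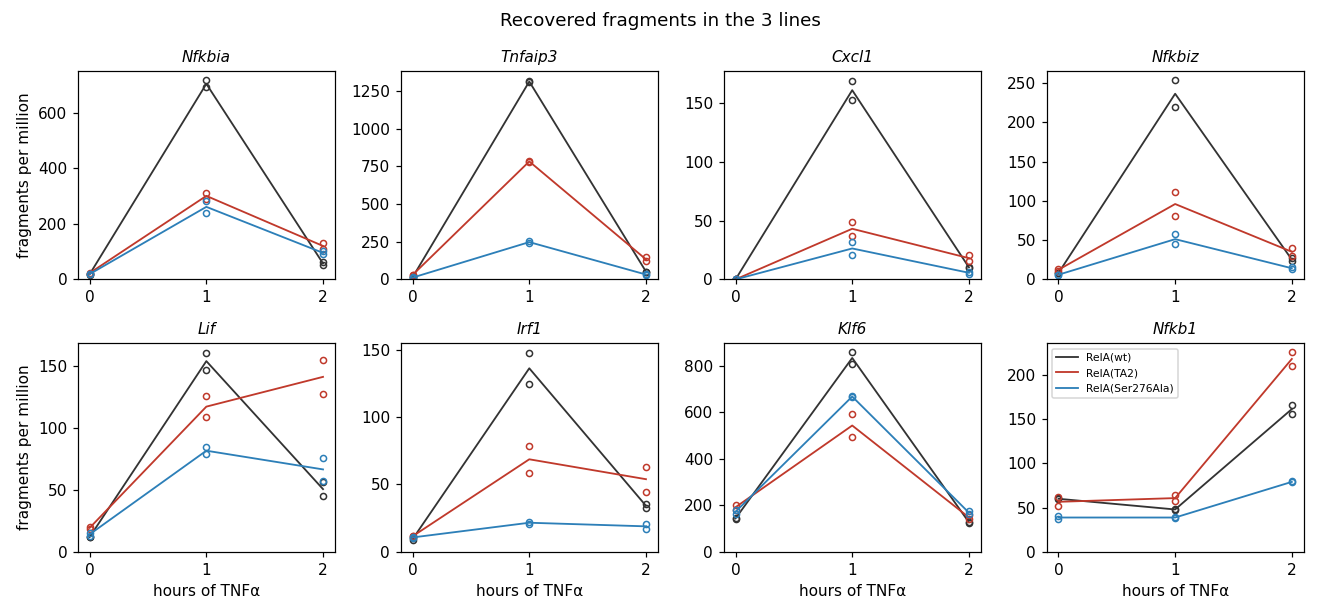
Recovered fragments per M (linear axis from 0) of 8 genes against hours of TNFα in RelA(wt) (black), RelA(TA2) (red) and RelA(Ser276Ala) cells (blue); open circles are the 2 libraries of a time and lines join their means. RelA(TA2) cells have the highest mean at 2 h in every panel but Klf6, with 127 and 155 for Lif against 44.8 and 56.4 in RelA(wt) cells.

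The largest fitted changes were mostly of genes without an assembled transcript at one of the times. By size, the 12 largest rises passing on both measures were all of genes listed at 0 in both 1 h libraries (among them Mmp9, 4833419F23Rik, Zfp951, Map3k1, Smad9, Zfp30, Tec, Stap2, Selp, Icam1 and Slc18a2), and 9 of the 12 largest falls were of genes listed at 0 in both 2 h libraries (among them Rpl37, Fkbp2, Ggcx, Agphd1, Mab21l3, Cpeb3, E130304F04Rik and Lmod1). In all, 17 of the 151 rises and 13 of the 113 falls were of this kind, and no fold change from 1 h to 2 h is given for them. Fitted differences between lines that are listed further below for some of them depend on the pseudocount. Of the genes named here, Map3k1, Zfp30, Slc18a2, Ggcx, Agphd1 and E130304F04Rik lost the FPKM call whichever library was left out. Rpl37, a ribosomal protein gene, was listed at 409 and 396 FPKM at 1 h and at 0 in both 2 h libraries, while the 12 ribosomal protein genes of the list had a median change of 0.12. Fkbp2, a prolyl isomerase of the ER, was listed at 22.5 and 29.8 FPKM and at 0. A zero of this kind says that no transcript was placed on the gene, and whether the message was absent was not tested. AY074887 was listed at 724 and 699 FPKM at 1 h and at 0 in all other libraries, with 0.746 and 0.829 recovered fragments per M, too few for the fragment test. Of the 315 genes called on FPKM, 20 changed by less than 0.2 on the log2 scale on fragments. Schip1 and Iqcj-schip1 share their exons and carry the same value (1.43), so they count as 1 signal in the 151.

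Promoter windows (250 bases before to 50 after a RefSeq start) were found for 8787 of the 12250 tested genes. They were found for 112 of the 151 genes that rose on both measures and for 80 of the 113 that fell. Genes without a window are not in the shares below. The κB consensus occurred in 12.6% of the 8787 genes, in 17.9% of the 112 that rose and in 12.5% of the 80 that fell. Nfkbie, Csf1 and Bcl2l1 were among the risers with a match, and Tnfaip3, Cxcl1 and Fos among the fallers. The AP-1 site TGANTCA occurred in 6.36% of all windows' genes, 11.6% of risers and 8.75% of fallers, and the cAMP response element TGACGTCA in 3.60%, 3.57% and 5.00%. The CArG box occurred in 1.51% of all, in 1 riser and in 5 fallers (Dusp5, Filip1l, Herpud1, Rnd3 and Zfp36), and the E-box CACGTG in 11.8%, 11.6% and 11.2%. Both strands were searched, matches of different motifs may overlap, and no test was made of these shares.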

How the data were processed

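RNA came from rela-/- MEF reconstituted with 1 of the 3 RelA constructs, each at 0, 1 and 2 h of TNFα, with 2 libraries a condition. Per the submitters' processing notes, reads were handled with CASAVA 1.8.2, aligned with TopHat2 2.0.5 and Bowtie2 2.0.0.7 to mm10, and assembled with Cufflinks 2.0.2. The authors deposited per-library assemblies whose transcripts carry FPKM values with confidence limits, normalized to each library's mapped fragments. These files hold no raw counts.

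FPKM were summed over the transcripts of a gene. Transcripts were placed on a RefSeq gene by an exon overlap of 50% or more of either one. Fragments were recovered from FPKM and its upper limit where a locus held 1 transcript, and from FPKM and transcript length elsewhere. Of single transcripts under 500 fragments, 88.9% to 90.2% a library lay within 0.02 of a whole number. Genes at 1 FPKM or more in at least 2 libraries were tested with limma 3.58.1 (R 4.3.3, variance trend) on log2(FPKM + 0.5), 1 mean per condition, 9 residual degrees of freedom, two-sided, Benjamini-Hochberg over all genes, and likewise on fragments per M. The script was checked on simulated data.

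Named genes were the 12 largest changes in each direction passing on both measures, the 9 qRT-PCR genes, up to 4 called members per list, the 8 smallest adjusted p in each direction of the difference from RelA(wt), and Rela. Some genes that this rule picks are not reported here. The comparison, the members and the 35 lists were chosen with earlier results of these data known. Alternatives were other pseudocounts, filters and scalings, fragments, no joined genes, a replicate block, the compared groups alone, and leaving out each library. Promoter sequences are from RefSeq (GRCm38.p6), searched in 250 bases before to 50 after each start.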

Additional observations from a re-analysis of the deposited data

Results flagged for a closer look

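Genes are listed here because their change from 1 h to 2 h differed between RelA(TA2) and RelA(wt) cells by the test of that difference (limma, adjusted p under 0.05 on FPKM). Values are RelA(TA2) minus RelA(wt) differences in log2 change of FPKM + 0.5. With 2 libraries a condition, libraries were not tested for standing apart from their condition.

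Of the NF-κB and immediate-early genes, Tnfaip3 differed by 2.17, Lif by 1.87, Irf1 by 1.65 and Klf6 by 0.90, and all 4 also passed on fragments. In 8 fits that each left out 1 library, the difference of Tnfaip3 was not called in 6, that of Irf1 in 3, that of Klf6 in 2 and that of Lif in none. Fos differed by 2.74 and passed on fragments, but it was listed at 0 in both RelA(wt) libraries at 2 h, so the value depends on the pseudocount and is no bound. Mmp9, with 4.75, was listed at 0 in RelA(TA2) cells at 1 h and at 2.34 and 3.43 FPKM in RelA(wt) cells, and did not pass on fragments (0.92 (SE 0.48, adjusted p = 0.675)). Lin28b, which encodes an RNA-binding protein that blocks let-7 maturation, differed by 3.37 and was listed at 0 in both RelA(wt) libraries at 2 h, with 5.56 and 3.69 FPKM at 1 h and 3.41 and 5.39 at 2 h in RelA(TA2) cells, and missed the fragment test (2.38 (SE 0.43, adjusted p = 0.0573)).

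Several differences sit with how transcripts were assembled or listed. Amdhd2 (2.03) was joined with its neighbour Atp6v0c in both RelA(wt) libraries at 1 h, where both genes carry 139 and 132 FPKM. Atp6v0c and its pseudogene Atp6v0c-ps2, which carries the same values, each differed by -1.33 on FPKM and by 0.13 on fragments. Prpf39 (-5.15) and Zfp688 (-3.86) were listed at 0 in both RelA(wt) libraries at 1 h. Rpl37 (-9.57) and Fkbp2 (-5.61) had no assembled transcript in either RelA(TA2) library at 2 h. Psma4, a proteasome subunit gene, differed by 1.14 on FPKM and 0.21 on fragments, and Ccdc55 by -1.75 and 0.05, neither past the fragment test. AY074887 (-10.48) was listed above 0 only in the RelA(TA2) libraries at 1 h. These are fitted values that depend on the pseudocount where a condition is listed at 0, and are no bounds.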

How the results depend on the processing

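Counts of called genes depended on the measure and on which libraries shared the estimate of spread. With recovered fragments, 1097 genes were higher and 1383 lower at 2 h in RelA(TA2) cells, 20 changes were higher and 8 lower than in RelA(wt) cells, and 26 higher and 7 lower than in RelA(Ser276Ala) cells. With only the compared groups in the fit, the counts were 48 and 56, 49 and 46, and 25 and 25, and 50 of the named genes' calls between 1 h and 2 h were lost. With a pseudocount of 0.1 the higher count against RelA(Ser276Ala) was 13, and without a filter the higher count against RelA(wt) was 19. The other scalings and filters left every count within 1.5 times.

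Leaving out 1 library at a time, 107 to 190 genes were higher and 83 to 166 lower at 2 h, with 107 higher without 1 h replicate 2, and 83 lower without 2 h replicate 1. The counts against RelA(wt) ranged from 17 to 75 higher and 26 to 76 lower, and those against RelA(Ser276Ala) from 17 to 83 higher and 21 to 62 lower. On FPKM, every one of these fits gave more differences than the full one, and the cause was not tested. In such fits the lone library is assumed to vary like the other conditions.

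Replicate numbers did not pair the libraries: deviations of same-numbered RelA(TA2) libraries at 1 h and 2 h correlated at 0.0081 on FPKM, and the 36 pairs of conditions at -0.063 to 0.083. With the number as a replicate block, 169 genes were higher and 122 lower, the higher count against RelA(wt) was 6, and the differences of Tnfaip3, Irf1 and Klf6 were not called (adjusted p 0.0644 to 0.0750).

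The RelA(TA2) changes of Amdhd2 (-0.013 with quantile normalization, -0.0029 with fragments), Atp6v0c and Atp6v0c-ps2 (0.068 with fragments) turned direction, as did the differences of Ccdc55 (0.046) and of Atp6v0c and Atp6v0c-ps2 (0.13) with fragments. Without 1 library, the change of Lin28b ranged from -0.36 to 0.23 and those of Atp6v0c and Atp6v0c-ps2 from -0.086 to 0.079. None of these changes was called. For the set activated in RelA(wt) cells the median change lay between -0.84 and -0.66 under all 15 alternatives.

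Limits are the 2 libraries a condition, the missing assembled transcripts (1221 tested genes at 0 in 1 of the 4 libraries or more), and the depth: at 27.2 M to 28.8 M fragments a gene was tested only at 1 FPKM or more in at least 2 of the 18 libraries. On simulated data of this size the test on FPKM recovered fewer of the small changes than of the large ones, so a gene without a call is not shown to be unchanged.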
